A study of Homo sapiens with 6 samples.

Results

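The transcripts described here are those of the human mitochondrial genome, chromosome M, in HT29 cells deprived of an amino acid. They were taken as the listed genes whose Ensembl identifier lies on chromosome M in gencode release 44. The rule found 37 genes among the 60676 listed, made up of 13 mRNA, 2 rRNA and 22 tRNA genes. HT29 is an established line from a human colorectal adenocarcinoma. The cells were kept for 48 h in control medium (untreated), without histidine (Hdepl) or without tryptophan (Wdepl), and polyadenylated RNA was sequenced from 2 samples per group. The histidine-free medium had an RPMI 1640 base and the tryptophan-free medium a DMEM F-12 base, both with dialyzed serum. The base of the control medium for the RNA sequencing is not named in the sources used here, so depletion and base medium cannot be told apart. The sources do not name the origin of the replicates as separate cultures either, and the p-values measure only the spread between these samples.

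The mitochondrial genome is a small circle read from both strands into long precursors, in which tRNA genes lie between most of the rRNA and mRNA genes and mark the sites of cutting. Its mRNAs encode core subunits of respiratory complexes I, III and IV and of the ATP synthase (complex V), and its rRNAs and tRNAs serve only the ribosomes inside the organelle. The polymerase, the transcription factors and the proteins that cut, tail and protect these RNAs come from nuclear genes.

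The tRNA genes for both depleted amino acids are printed because their tRNAs carry the amino acids that the media lack. The proline gene is printed because it was the only tRNA gene with enough reads for a test. The phenylalanine gene is the other tRNA gene with any read. The sequences, from GRCh38, run 5′ to 3′ on the gene's own strand, with the anticodon in capitals. MT-TH lies at chrM:12138-12206 and MT-TW at chrM:5512-5579, both on the plus strand. MT-TP lies at chrM:15956-16023 on the minus strand and MT-TF at chrM:577-647 on the plus strand.
MT-TH: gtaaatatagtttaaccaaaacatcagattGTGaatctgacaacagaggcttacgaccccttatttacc
MT-TW: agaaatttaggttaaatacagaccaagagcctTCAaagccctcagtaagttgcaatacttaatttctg
MT-TP: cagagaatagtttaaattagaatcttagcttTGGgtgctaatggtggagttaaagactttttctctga
MT-TF: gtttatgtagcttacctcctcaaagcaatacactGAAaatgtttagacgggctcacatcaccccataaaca

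Reads were recovered as whole numbers from the deposited normalised counts, and the 6 libraries held 46390819 to 64388876 of them. Of 9 markers of colon epithelium, 8 had a mean of at least 10 normalised counts in every group, and CDX1 was at 0 after histidine depletion. EPCAM stayed between 26253 and 31026, but other markers moved. CEACAM5 had 497 and 540 normalised counts in untreated cells, 67 and 105 without histidine and 7952 and 7856 without tryptophan. In the same order CDX2 had 469 and 457, 182 and 172, and 423 and 365. KRT20 had 10264 and 10759, 34599 and 35062, and 55379 and 54901. The part of these changes in the results was not tested. In contrast, the leukocyte, fibroblast and endothelial lists summed to at most 462 normalised counts in any library. Of their genes, COL1A2 was at 0 in every library and PTPRC had at most 2 reads, while CD79A had 58 to 77, COL1A1 30 to 70 and PECAM1 9 to 44. CD14 had 95 and 120 reads in untreated cells, 56 and 62 without histidine and 356 and 401 without tryptophan, and its part in the results was not tested. In bulk RNA, fewer cells rich in a transcript and less of it per cell cannot be told apart. In libraries made from polyadenylated RNA, a change in the amount of a transcript and in its A tail cannot be told apart either.

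Of the 37 genes, 17 had at least 1 read in some library, namely all 13 mRNAs, both rRNAs, MT-TP and MT-TF. The other 20 tRNA genes, MT-TH and MT-TW among them, had 0 reads in all 6 libraries, which allows each at most 0.0466 to 0.0647 CPM (3 reads of a library's total; counting error only). The 22 tRNA genes are 59 to 75 bases long, shorter than the sequenced reads. The 20 without reads lie at most 31 bases from another gene on either side, and a read or fragment that reaches a neighbouring gene is not counted for any gene in the usual setting of the counting tool. MT-TP and MT-TF, the tRNA genes with reads, each border the control region on one side. A filter of a mean of at least 10 normalised counts left 16 members in each comparison. MT-TF, with 1 to 4 reads per library, was the only member with reads that did not pass it.

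Counting also limited what can be read from overlapping genes. Of 13 protein-coding genes elsewhere in the genome whose exons are wholly covered by exons on the opposite strand, 0 had a read in any library. Among protein-coding genes without overlap, 8561 of 10431 had reads. For long noncoding RNA genes covered in the same way, 16 of 387 had reads, against 5561 of 10457 without overlap. Reads over genes on both strands were thus mostly missing from the counts although the libraries were stranded, and reads of either strand cannot be told apart for MT-ND6 and MT-TP, the members with reads that lie on the minus strand. On the plus strand, MT-ATP8 and MT-ATP6 share 46 bases, or 22.2% of MT-ATP8. In the usual setting of the counting tool, reads over the shared stretch count for neither gene. The stretch, at chrM:8527-8572, is therefore given in capitals with 12 bases on either side.
MT-ATP8/MT-ATP6: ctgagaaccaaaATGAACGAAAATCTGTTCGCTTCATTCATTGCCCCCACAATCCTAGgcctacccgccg
MT-ND4L and MT-ND4 share 7 bases and MT-ATP6 and MT-CO3 share 1.

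Mitochondrial genes took 3.83% and 2.72% of the reads in the untreated libraries, 2.86% and 2.42% without histidine and 3.13% and 3.22% without tryptophan. The 2 untreated libraries thus held the highest share and one of the lower ones, and they enclosed both tryptophan-depleted libraries and 1 of the histidine-depleted libraries. The 13 mRNAs made up most of this, with 3.47% and 2.46% in untreated cells, 2.47% and 2.08% without histidine and 2.57% and 2.69% without tryptophan. The rRNAs behaved differently and took 0.357% and 0.257%, then 0.389% and 0.338%, then 0.554% and 0.533% in the same order, so that both tryptophan-depleted libraries were above all others. An exact two-sided permutation test over samples cannot go below p = 0.333 with 2 libraries against 2. The exact test gave p = 0.667 for histidine depletion and p = 1 for tryptophan depletion against untreated cells over all 37 genes.

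Replicates differed more for these genes than for most others, with the largest log2 ratios for the mRNAs in untreated cells. There the first replicate exceeded the second for all 13 mRNAs, by a log2 ratio of 0.38 (MT-ND3) to 0.53 (MT-ATP8) with a median of 0.45. Over all genes tested, the median absolute log2 ratio between these libraries was 0.097, and for genes within 2-fold of a member's mean its 95th percentile was typically 0.15. The 75 tested nuclear genes for respiratory chain subunits had a median log2 ratio of -0.07 between the same libraries. After histidine depletion the first replicate was higher for the 13 mRNAs by a log2 ratio of 0.21 to 0.27. The 95th percentile for genes of like mean was typically 0.088 there, and all 13 mRNAs were beyond it, as they were in untreated cells. After tryptophan depletion the ratios ran from -0.09 to -0.05, the smallest of the 3 groups. The like percentile was typically 0.065 there, and 7 of 13 mRNAs were beyond it. MT-TP did not follow the mRNAs in untreated cells, where its ratio was 0.12. The cause of these differences between replicates was not tested, and each result below is given with the libraries it rests on.

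Levels below are normalised read counts with all 6 libraries scaled together. Fold changes against untreated cells were fitted with limma on log2(normalised count + 1) within each deposited table, where the untreated counts differ slightly because each table has its own size factors. Adjusted p-values cover all genes tested, 18288 after histidine and 17960 after tryptophan depletion. With a library left out, its group held a single library and the spread came from the other libraries alone. Passing the test in such a fit therefore does not show that a call holds. Changes were widespread: 39.1% of all tested genes were higher and 38.2% lower after histidine depletion, and 36.1% were higher and 34.8% lower after tryptophan depletion. Groups did not overlap for 88.1% and 84.1% of all tested genes in these comparisons.

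The rRNAs rose in both depletions, and each depletion raised a different one more. MT-RNR1, the 12S rRNA of the small mitochondrial ribosomal subunit (ENSG00000211459, chrM:648-1601), had 22611 and 15281 normalised reads in the untreated libraries, 33514 and 29394 without histidine and 28650 and 21368 without tryptophan. Both histidine-depleted libraries were above every other library, and the second tryptophan-depleted library lay between the untreated ones. MT-RNR1 rose 1.70-fold after histidine depletion (log2 0.76, SE 0.10, limma adjusted p = 2.70e-07), and by log2 0.48 without untreated replicate 2. After tryptophan depletion it rose 1.32-fold (log2 0.41, SE 0.06, limma adjusted p = 1.30e-08), a call that was lost without the first tryptophan-depleted library (log2 0.20), with DESeq2 (log2 0.38), without the variance trend and when scaled to nuclear reads. In this depletion MT-RNR1 lay at log2 0.12 without untreated replicate 2, at 0.69 without untreated replicate 1 and at 0.61 without the second tryptophan-depleted library.

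MT-RNR2, the 16S rRNA of the large subunit (ENSG00000210082, chrM:1671-3229), had 158362 and 119360 normalised reads in untreated cells, 192797 and 168706 without histidine and 272048 and 268840 without tryptophan. The 3 groups did not overlap, and the tryptophan-depleted libraries were the highest and closest to each other. It rose 1.96-fold after tryptophan depletion (log2 0.97, SE 0.08, limma adjusted p = 3.54e-22), between 0.76 and 1.17 on the log2 scale over all 15 alternatives. After histidine depletion it rose 1.32-fold (log2 0.40, SE 0.10, limma adjusted p = 0.000766), and this call was lost without either histidine-depleted library (log2 0.30 and 0.50), with DESeq2 (log2 0.38), without the variance trend and when scaled to nuclear reads (log2 0.20). Without untreated replicate 2 it was log2 0.20 and without untreated replicate 1 it was 0.60. Per kb of gene length, MT-RNR1 stood at a log2 ratio of -2.18 ± 0.11 to MT-RNR2 in untreated cells, -1.81 ± 0.002 after histidine depletion and -2.74 ± 0.29 after tryptophan depletion (mean ± SD, n = 2 each).

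MT-TP, the gene of the proline tRNA (ENSG00000210196), had 1748 and 1605 normalised reads in untreated cells, 995 and 793 without histidine and 1260 and 1330 without tryptophan. The 3 groups were apart from each other. It fell in both depletions, by 46.6% after histidine depletion (log2 -0.91, SE 0.08, limma adjusted p = 2.71e-10) and by 23.1% after tryptophan depletion (log2 -0.38, SE 0.06, limma adjusted p = 2.89e-09). Both calls held in 14 of 15 alternatives, the exception being the demand for a change of at least 1 on the log2 scale. Reads of the mature tRNA and of longer precursors cannot be told apart for this gene, and neither can reads of either strand.

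Among mRNAs, 7 of 13 were lower after histidine depletion and the other 6 did not pass the test. Of all tested genes, 38.2% were lower and 39.1% higher there. After tryptophan depletion 6 were lower and 1 higher, where the shares of all genes were 34.8% and 36.1%. The median log2 fold change of the 13 was -0.25 and -0.13, against 0.010 and 0.013 over all genes tested. Groups did not overlap for 4 of 13 mRNAs after histidine depletion and for 2 of 13 after tryptophan depletion, against 88.1% and 84.1% of all tested genes. These calls rest on the untreated libraries. Without untreated replicate 1, the 7 mRNAs called lower after histidine depletion lay at log2 -0.29 (MT-CO3) to -0.04 (MT-ND4). The 6 called lower after tryptophan depletion then lay at -0.16 (MT-CO3) to 0.11 (MT-ATP8). Without untreated replicate 2, the 7 lay at log2 -0.72 (MT-CO3) to -0.47 (MT-ND4), and the 6 at -0.60 (MT-CO3) to -0.39 (MT-ND6). Such fits hold a single untreated library, so their spread comes from the depleted libraries alone. Without the second histidine-depleted library 2 mRNAs were called lower, and without either tryptophan-depleted library at most 1 passed. DESeq2 called 1 mRNA lower after histidine depletion, MT-CO3, and 0 after tryptophan depletion.

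Complex IV mRNAs were the most abundant per kb. MT-CO3, encoding cytochrome c oxidase subunit 3 (ENSG00000198938, chrM:9207-9990), had 218958 and 161894 normalised reads in untreated cells, 142058 and 122091 without histidine and 142560 and 148866 without tryptophan. All 4 depleted libraries were below both untreated ones. MT-CO3 fell by 29.6% after histidine depletion (log2 -0.51, SE 0.10, limma adjusted p = 9.16e-05) and by 23.0% after tryptophan depletion (log2 -0.38, SE 0.08, limma adjusted p = 9.53e-06), with calls in 12 and 10 of 15 alternatives and no reversal. Without untreated replicate 1 its log2 fold changes were -0.29 and -0.16, with the spread taken from the depleted libraries alone. The call was lost without the second histidine-depleted library (log2 -0.39) and without either tryptophan-depleted one (log2 -0.34 and -0.41).

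MT-CO1, encoding the catalytic subunit 1 (chrM:5904-7445), had 442096 and 320451 normalised reads in untreated cells, 371429 and 310158 without histidine and 391833 and 413820 without tryptophan. The untreated libraries enclosed both tryptophan-depleted ones, and neither comparison passed (limma log2 -0.14, adjusted p = 0.285, and log2 0.09, adjusted p = 0.420). With a library left out, the log2 fold changes ran from -0.37 to 0.089 after histidine and from -0.14 to 0.32 after tryptophan depletion. MT-CO2, encoding the copper-binding subunit 2 (chrM:7586-8269), had 192676 and 141352 in untreated cells, 160978 and 135323 after histidine and 143084 and 149953 after tryptophan depletion. The groups overlapped; the log2 fold change was -0.15 after histidine depletion (limma adjusted p = 0.188), and the drop of 11.7% after tryptophan depletion (log2 -0.18, limma adjusted p = 0.0332) turned to log2 0.04 without untreated replicate 1.

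Complex V mRNAs, MT-ATP8 (chrM:8366-8572) and MT-ATP6 (chrM:8527-9207), encode membrane subunits of the ATP synthase and share a transcript. MT-ATP6 had 114890 and 81444 normalised reads in untreated cells, 78336 and 67336 after histidine and 85597 and 88984 after tryptophan depletion. MT-ATP8 had 5861 and 4051, then 3891 and 3236, then 4300 and 4479 in the same order. Histidine-depleted libraries were the lowest for both genes, and the tryptophan-depleted ones lay between the untreated libraries. After histidine depletion MT-ATP6 fell by 24.4% (log2 -0.40, limma adjusted p = 0.000945) and MT-ATP8 fell by 26.7% (log2 -0.45, limma adjusted p = 0.000295). Without untreated replicate 1 these were log2 -0.16 for MT-ATP6 and -0.18 for MT-ATP8, the latter not called. The MT-ATP6 call was lost without the second histidine-depleted library (log2 -0.29). Their log2 fold changes after tryptophan depletion, -0.16 each (limma adjusted p = 0.0419 and 0.0102), turned to 0.09 and 0.11 without untreated replicate 1. Per kb, the log2 ratio of MT-ATP8 to MT-ATP6 stayed between -2.66 and -2.58 in all 6 libraries.

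Complex I mRNAs, which encode 7 membrane subunits of NADH dehydrogenase, split. MT-ND6 (chrM:14149-14673), the only mRNA gene on the minus strand, had 21718 and 16154 normalised reads in untreated cells, 14739 and 12531 after histidine and 16415 and 16947 after tryptophan depletion. It fell by 27.0% after histidine depletion, where groups did not overlap (log2 -0.45, SE 0.09, limma adjusted p = 4.99e-05, and log2 -0.24 without untreated replicate 1). The drop was 11.4% after tryptophan depletion, where groups overlapped (log2 -0.17, limma adjusted p = 0.00297, and log2 0.04 without untreated replicate 1). Reads of either strand cannot be told apart for MT-ND6, here and wherever it is named below. Its values may therefore hold RNA of the plus strand. MT-ND5 (chrM:12337-14148) had 101734 and 73965 in untreated cells, 73923 and 62636 after histidine and 80964 and 84294 after tryptophan depletion. Its first histidine-depleted library lay just below the second untreated one on this scale and above it in the deposited table, and the drop was 21.1% (log2 -0.34, limma adjusted p = 0.00310; log2 -0.11 without untreated replicate 1 and -0.22 without the second histidine-depleted library, both not called).

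The overlapping pair MT-ND4L (chrM:10470-10766) and MT-ND4 (chrM:10760-12137) moved together. MT-ND4 had 300286 and 221837 normalised reads in untreated cells, 234368 and 198104 after histidine and 241808 and 251915 after tryptophan depletion. MT-ND4L had 29588 and 21054, then 21831 and 18641, then 23292 and 24381 in the same order. In both genes the first histidine-depleted library and both tryptophan-depleted ones lay between the untreated libraries. They fell by 16.0% (MT-ND4, log2 -0.25, limma adjusted p = 0.0397) and 18.7% (MT-ND4L, log2 -0.30, limma adjusted p = 0.00638) after histidine depletion, calls that were lost without untreated replicate 1 (log2 -0.04 and -0.06) or the second histidine-depleted library (log2 -0.13 and -0.18), and had log2 fold changes of -0.07 each after tryptophan depletion (limma adjusted p = 0.468 and 0.252). Per kb, their log2 ratio stayed between -1.21 and -1.13.

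The remaining complex I mRNAs were not called lower in either depletion. MT-ND1 (chrM:3307-4262), directly downstream of MT-RNR2 and a leucine tRNA gene, had 108680 and 79244 normalised reads in untreated cells, 114074 and 96816 after histidine and 103628 and 107705 after tryptophan depletion. The second untreated library was the lowest of all 6. Its log2 fold change was 0.19 after histidine depletion (limma adjusted p = 0.0894), and ran from -0.037 to 0.41 with a library left out. The increase of 13.3% after tryptophan depletion (log2 0.18, limma adjusted p = 0.0188) turned to log2 -0.05 without untreated replicate 2 and was 0.41 without untreated replicate 1. MT-ND2 (chrM:4470-5511) ran from 58064 in untreated replicate 2 to 79153 in untreated replicate 1, with the other 4 libraries between them, and MT-ND3 (chrM:10059-10404) from 11679 to 15236 in the same libraries. Their log2 fold changes were 0.03 and 0.07 after histidine depletion (limma adjusted p = 0.783 and 0.449) and -0.13 and 0.06 after tryptophan depletion (limma adjusted p = 0.0768 and 0.349).

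MT-CYB, encoding cytochrome b, the only complex III subunit made in the organelle (ENSG00000198727, chrM:14747-15887), had 127229 and 94727 normalised reads in untreated cells, 130408 and 112756 after histidine and 89536 and 93911 after tryptophan depletion. Both tryptophan-depleted libraries were below all others, and the histidine-depleted ones were above the second untreated library. Its log2 fold change was 0.15 after histidine depletion (limma adjusted p = 0.156), and ran from -0.058 to 0.36 with a library left out. After tryptophan depletion it fell by 16.9% (log2 -0.27, SE 0.07, limma adjusted p = 0.000412), a call lost without untreated replicate 1 (log2 -0.05) or without either tryptophan-depleted library (log2 -0.23 and -0.31).

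Compared directly over 18276 genes, histidine-depleted cells differed from tryptophan-depleted cells in 9 of 16 members. Of all genes tested, histidine-depleted cells had 39.1% higher and 37.8% lower than tryptophan-depleted cells, and the groups did not overlap for 88.8%. They did not overlap for 9 of 13 mRNAs. MT-CYB was higher after histidine depletion by log2 0.40 (SE 0.10, limma adjusted p = 0.00105), and MT-RNR1 by log2 0.34 (SE 0.13, limma adjusted p = 0.0280). MT-RNR2 was lower by 33.3% (log2 -0.58, SE 0.09, limma adjusted p = 2.36e-05) and MT-TP by 31.4% (log2 -0.54, SE 0.08, limma adjusted p = 1.07e-05), both in 13 of 14 alternatives. MT-ATP8, MT-ND6, MT-ND5, MT-ATP6 and MT-ND4L were lower by log2 0.31 to 0.24 in size, with limma adjusted p from 0.00874 (MT-ND6) to 0.0429 (MT-ND4L). These 5 mRNA calls were lost without the second histidine-depleted library (log2 -0.18 to -0.13) and without the second tryptophan-depleted library, and MT-ND6 alone passed without the first tryptophan-depleted one. The MT-RNR1 call was lost without either histidine-depleted library (log2 0.25 and 0.44) and without the second tryptophan-depleted one (log2 0.13), and the MT-CYB call without the first histidine-depleted one (log2 0.30). The remaining 7 mRNAs did not pass, with limma adjusted p from 0.0529 (MT-CO1) to 0.973 (MT-ND3).

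Since the shift between the untreated libraries was shared by all mRNAs, each gene's level per kb was also expressed as a share of the summed level of the 13 mRNAs in the same library. This was done as a description without a test, and shares of a fixed sum are not independent of each other. Replicates of a group differed by at most 0.08 on the log2 scale for any mRNA, with a median of 0.02. In untreated cells the order was MT-CO1 (15.9% and 15.8%), then MT-CO2 (15.6% and 15.7%) and MT-CO3 (15.5% and 15.7%), which overlap, then MT-ND4 (12.1% and 12.2%), MT-ATP6 (9.35% and 9.07%), MT-ND1 (6.30% and 6.28%) and MT-CYB (6.18% and 6.29%), of which the last 2 overlap. MT-ND4L, MT-ND2, MT-ND5, MT-ND3, MT-ND6 and MT-ATP8 followed, from 5.52% down to 1.48%. Levels per kb used the full gene length, and 22.2% of MT-ATP8 is shared with MT-ATP6, so its place holds within this counting. The same limit applies to the other genes that share bases, MT-ND4L with MT-ND4 (7 bases) and MT-ATP6 with MT-CO3 (1 base). Reads or fragments that reach a neighbouring gene are not counted in the usual setting, also for MT-ND4L, which is 297 bases long.

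MT-CYB held 7.87% and 8.02% without histidine and 5.58% and 5.59% without tryptophan, above the untreated share in one depletion and below it in the other (log2 0.35 and -0.16). MT-ND1 held 8.22% in both histidine-depleted libraries and 7.71% and 7.66% without tryptophan (log2 0.39 and 0.29). MT-CO3 held 12.5% and 12.6% without histidine and 12.9% in both libraries without tryptophan (log2 -0.31 and -0.27). MT-ND3 and MT-ND2 were higher after histidine depletion (log2 0.27 and 0.23), and MT-ND6, MT-ATP8 and MT-ATP6 were lower (log2 -0.26, -0.25 and -0.21). After tryptophan depletion the same 3 lay at log2 -0.07 to -0.05, where 1 library moved MT-ATP8 between -0.090 and -0.0095 and MT-ATP6 between -0.069 and -0.025 (both lowest without untreated replicate 2 and highest without untreated replicate 1). MT-CO1 took 18.1% and 18.2% after tryptophan depletion (log2 0.20) and 16.6% and 16.3% after histidine depletion (log2 0.06). Set against the same mRNA sum, MT-RNR2 went from 5.63% and 5.80% to 8.52% and 8.78% without histidine and to 12.4% and 11.7% without tryptophan (log2 0.60 and 1.08). MT-RNR1 had 1.31% and 1.21%, then 2.42% and 2.50%, then 2.14% and 1.52% (log2 0.96 and 0.53), with the largest gap between replicates, 0.49, in the tryptophan-depleted pair. Its log2 difference after tryptophan depletion was 0.27 without the first of these libraries and 0.76 without the second. Leaving out 1 library turned the sign of no gene's share against untreated cells.

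The ratio of 2 genes within a library restates these shares without their sum. MT-CYB to MT-ND5 had a log2 ratio per kb of 0.99 and 1.02 in untreated cells, 1.49 and 1.52 without histidine and 0.81 and 0.82 without tryptophan. MT-CO3 to MT-CO1 went from -0.04 and -0.01 to -0.41 and -0.37 and to -0.48 and -0.50. Position along the plus strand and the log2 fold change over its 14 rRNA and mRNA genes had Spearman's rho -0.50 and Pearson's r -0.62 without histidine, and -0.53 and -0.70 without tryptophan. Over the 12 mRNAs alone these were -0.20 and -0.19, and -0.27 and -0.47, so that the relation rests in large part on the rRNA genes, which lie first. These correlations are across genes measured in the same libraries and share their untreated libraries.

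Codon content for the missing amino acids differs widely among these mRNAs. Histidine codons make up 97 of their 3789 codons (2.56%), with 79 CAC and 18 CAT, and tryptophan codons 104 (2.74%), with 93 TGA and 11 TGG. MT-CO3 has the largest share of histidine codons, 6.51% or 17 codons, and MT-ND3 and MT-ND6 have 0. MT-ND4L has 0 tryptophan codons, and MT-CO3 the largest share, 4.60%. The histidine share and the log2 fold change after histidine depletion had Pearson's r -0.44 and Spearman's rho -0.23 over the 13 mRNAs, and the same share gave -0.57 and -0.29 after tryptophan depletion. For the tryptophan share and tryptophan depletion they were -0.19 and -0.24. MT-ND3 and MT-ND6, both without histidine codons, lay at log2 0.07 and -0.45 after histidine depletion.

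In human mitochondria some mRNAs lack a full stop codon until the A tail completes it, which 6 of the 13 do. Relative to untreated cells, the shares of these 6 after histidine depletion were at log2 0.39 (MT-ND1), 0.35 (MT-CYB), 0.27 (MT-ND3), 0.23 (MT-ND2), -0.05 (MT-ND4) and -0.31 (MT-CO3). The 7 mRNAs with a full stop codon ran from -0.26 (MT-ND6) to 0.06 (MT-CO1). After tryptophan depletion the ranges were -0.27 (MT-CO3) to 0.29 (MT-ND1) for the 6 and -0.07 (MT-CO2) to 0.20 (MT-CO1) for the 7. The last 27 bases of MT-CYB and MT-CO3 are shown with the incomplete stop in capitals, since both end on the same single base.
MT-CYB: ttgaaaacaaaatactcaaatgggccT
MT-CO3: atgtctccatctattgatgagggtctT

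Copies of mitochondrial sequence in the nuclear genome can take reads from these transcripts or give reads to them. Listed were 404 such copies (annotated pseudogenes and MTRNR2L genes), 87 of which had reads, and they took 0.0554% to 0.103% of a library. Most of these reads, 77.1% to 80.7%, fell on MTATP6P1 (chr1:633696-634376), MTCO1P12 (chr1:631074-632616) and MTND4P12 (chr5:134926660-134928036). MTATP6P1 had 26896 and 18681 normalised reads in untreated cells, 17953 and 15203 after histidine and 19224 and 20592 after tryptophan depletion. Its reads amounted to 22.5% to 23.4% of those of MT-ATP6 in every library, while MTCO1P12 had 2.16% to 2.25% of MT-CO1 and MTND4P12 at most 1.63% of MT-ND4. The copies went with their parents between replicates too, with a median log2 ratio of 0.45 between the untreated libraries. Reads shared between nearly identical copies cannot be assigned with certainty, and which of them the counting kept is not given in the sources used here.

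Lists of nuclear genes are read against the shares of all tested genes, 39.1% higher and 38.2% lower without histidine and 36.1% and 34.8% without tryptophan. Of 8 tested genes of the mitochondrial transcription apparatus, 5 were higher and 3 lower after histidine depletion, and 1 was higher and 3 lower after tryptophan depletion, so that the lower genes were near the share of all genes in both. TFB2M, the factor that opens mitochondrial promoters, had 1732 and 1880 normalised reads in untreated cells, 5217 and 5217 without histidine and 1913 and 1872 without tryptophan. Only the histidine-depleted libraries stood apart, with a log2 fold change of 1.54 (SE 0.05, limma adjusted p = 5.39e-18), against 0.06 after tryptophan depletion (limma adjusted p = 0.318) and a direct difference of 1.46 (limma adjusted p = 1.94e-14). TFAM, which packs mitochondrial DNA and recruits the polymerase, had 6061 and 6539, then 7565 and 7740, then 2652 and 2562. It was lowest after tryptophan depletion (log2 -1.28, SE 0.05, limma adjusted p = 2.45e-54) and higher after histidine depletion (log2 0.29, limma adjusted p = 1.89e-05), and the direct difference was 1.55 (limma adjusted p = 3.71e-15).

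POLRMT, the mitochondrial RNA polymerase, varied little, with 1768 and 1869 normalised reads in untreated cells, 1965 and 2033 after histidine and 1786 and 1662 after tryptophan depletion. Its log2 fold changes were 0.15 (limma adjusted p = 0.0245) and -0.08 (limma adjusted p = 0.161). TEFM, the elongation factor, rose after histidine depletion (log2 0.34, limma adjusted p = 0.00311) and fell after tryptophan depletion (log2 -0.44, limma adjusted p = 8.75e-05). MTERF1, which binds just past the 16S rRNA gene and can stop transcription there, had 778 and 783, then 1391 and 1428, then 633 and 674, highest without histidine (log2 0.86, limma adjusted p = 1.05e-11) and lowest without tryptophan (log2 -0.26, limma adjusted p = 0.000621).

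Among 24 genes for cutting, tailing, protecting and degrading mitochondrial RNA, 9 were higher and 10 lower after histidine depletion and 6 higher and 11 lower after tryptophan depletion. The first pair is near the 39.1% and 38.2% of all genes, and the other is set against 36.1% and 34.8%. GRSF1, a protein of the mitochondrial RNA granules, had 10698 and 11148 normalised reads in untreated cells, 4318 and 4496 after histidine and 11802 and 11801 after tryptophan depletion. It fell after histidine depletion (log2 -1.30, limma adjusted p = 2.71e-17), as did TFB1M, which methylates the 12S rRNA (log2 -1.32, limma adjusted p = 3.29e-11). After tryptophan depletion TFB1M fell too (log2 -0.33, limma adjusted p = 0.000326), and GRSF1 rose by log2 0.10 (limma adjusted p = 0.0396). REXO2, an exonuclease for short RNA, rose (log2 0.75, limma adjusted p = 6.75e-30) and PRORP, the nuclease that cuts the 5′ ends of tRNAs, fell (log2 -0.74, limma adjusted p = 7.36e-06) after tryptophan depletion. After histidine depletion these went the other way, at log2 -0.34 for REXO2 (limma adjusted p = 6.10e-06) and 0.59 for PRORP (limma adjusted p = 0.000134). LRPPRC, which stabilises most mitochondrial mRNAs, had 20873 and 22174, then 17970 and 18032, then 19623 and 19628, a log2 fold change of -0.25 (limma adjusted p = 0.000163) and -0.14 (limma adjusted p = 0.00825).

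The mitochondrial synthetases that charge the tRNAs for the depleted amino acids were each lowest when their own amino acid was missing. HARS2, for histidine, had 3112 and 3179 normalised reads in untreated cells, 1511 and 1516 after histidine and 2767 and 2793 after tryptophan depletion, and fell in both (log2 -1.05, limma adjusted p = 9.09e-15, and log2 -0.19, limma adjusted p = 0.000507). WARS2, for tryptophan, had 1630 and 1679, then 1915 and 1864, then 973 and 983, and was lower after tryptophan depletion (log2 -0.76, limma adjusted p = 1.66e-24) and higher after histidine depletion (log2 0.20, limma adjusted p = 0.00284). In the direct comparison HARS2 was lower (log2 -0.88, limma adjusted p = 5.85e-12) and WARS2 higher (log2 0.95, limma adjusted p = 1.33e-11) after histidine than after tryptophan depletion.

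Of 13 genes for replication and upkeep of mitochondrial DNA, 5 rose and 5 fell after histidine depletion, and 3 rose and 6 fell after tryptophan depletion. TK2, a mitochondrial thymidine kinase, fell after histidine depletion (log2 -1.71, limma adjusted p = 5.29e-15) and rose after tryptophan depletion (log2 0.41, limma adjusted p = 1.27e-08). DNA2 fell most of this list after tryptophan depletion (log2 -2.16, limma adjusted p = 6.49e-62) and also fell after histidine depletion (log2 -1.08, limma adjusted p = 1.42e-13). MGME1, a mitochondrial nuclease, was at log2 -1.47 after tryptophan depletion (limma adjusted p = 2.00e-48) and -0.10 after histidine depletion (limma adjusted p = 0.114). The histidine counts equal the background, 39.1% higher and 38.2% lower, to within 1 gene. Of 11 genes that modify mitochondrial tRNAs, 6 rose and 2 fell after histidine depletion and 3 rose and 7 fell after tryptophan depletion. GTPBP3, which acts on the wobble base, fell in both (log2 -1.89, limma adjusted p = 1.28e-14, and log2 -0.65, limma adjusted p = 7.56e-14). Going with most of this list, QTRT2 rose after histidine depletion (log2 1.28, limma adjusted p = 2.44e-17). Of 8 regulators of mitochondrial biogenesis, 6 rose and 1 fell after histidine depletion and 5 rose and 1 fell after tryptophan depletion. After histidine depletion PPARGC1B was the one that fell (log2 -2.06) and PPRC1 rose (log2 1.01). NRF1 and ESRRA rose after tryptophan depletion (log2 0.59 and 0.49). Of all tested genes, 39.1% were higher and 38.2% lower without histidine, and 36.1% and 34.8% without tryptophan.

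Nuclear subunits of the complexes that the mitochondrial mRNAs also serve were compared with them. Of 75 tested, 20 were higher and 41 lower after histidine depletion, with a median log2 fold change of -0.16, where 39.1% and 38.2% of all tested genes were higher and lower, and 4 were higher and 62 lower after tryptophan depletion, with a median of -0.42, where the shares of all genes were 36.1% and 34.8%. For complex V, 11 of 18 and 17 of 18 were lower in these comparisons, for complex IV 6 of 11 and 10 of 11, for complex III 6 of 9 and 7 of 9 and for complex I 18 of 37 and 28 of 37. In the direct comparison 42 of the 75 nuclear subunits were higher after histidine than after tryptophan depletion, 23 were lower and 10 did not pass (median log2 0.24, with 39.1% and 37.8% of all genes higher and lower), while the mitochondrial mRNAs had a median of -0.20 there, with 1 higher and 5 lower.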

How the data were processed

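RNA of HT29 cells was sequenced from 2 samples each of untreated, histidine-depleted and tryptophan-depleted cells, with a kit for polyadenylated RNA that keeps strand and adds molecular identifiers. Per the submitters' processing notes, reads were aligned with STAR 2.7.10a to GRCh38 and counted with HTSeq 2.0.5 on gencode release 38. The paper describes the counting as limited to exons of protein-coding genes. The 60676 listed genes nevertheless include rRNA, tRNA and long noncoding RNA genes, and some of these have reads. Use of strand, identifiers and multiply mapped reads in counting is not given in the sources used here. The authors deposited these counts after division by DESeq2 size factors (a normalised signal), in one table for histidine and one for tryptophan depletion, both with the untreated libraries. Whole reads were recovered for 100% of values (tolerance 0.01), and the untreated reads were the same in both tables.

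Genes were matched by identifier to gencode release 44 on GRCh38 (60357 of 60676; 319 without a match), which gave class, coordinates and sequence. The main test was limma 3.58.1 in R 4.3.3 (variance trend, two-sided) on log2(normalised count + 1) keeping genes whose mean reached 10, with p-values adjusted by Benjamini-Hochberg and called under 0.05. The depletions were compared directly on recovered reads of all 6 libraries under median-of-ratios size factors. Tests were checked on simulated counts, where 100% of 200 changed genes were recovered in each comparison and 6.10% (histidine), 2.91% (tryptophan) and 6.54% (direct) of the calls were false. The simulation differed from the data. Its libraries had a small spread, independent between genes, and only 200 genes changed, among 18121 for histidine. The check therefore does not cover widespread changes or a shift between replicates shared by the mitochondrial mRNAs, and these false shares do not apply to their calls. Counting intervals and floors cover counting error only. Settings changed in turn were the pseudocount (0.5, 8), the filter (none, or a mean of 50), the variance trend (none), scaling to nuclear reads, edgeR 4.0.16, DESeq2 1.42.0, a replicate block, all 6 libraries, a required change of 1 on the log2 scale, and leaving out each library. A group with a library left out held a single library and gave no spread of its own. For shares of the mRNA sum, leaving out libraries was added after seeing the data. Tables were made with Python 3.11.15, pandas 2.3.3, numpy 2.4.6 and scipy 1.17.1.

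All mRNAs and rRNAs were named, with tRNA genes of a mean of at least 10 and those for histidine and tryptophan. From each list of nuclear genes, candidates for naming were the 2 called members with the largest absolute log2 fold change and at least 100 normalised counts in the higher group, together with POLRMT, TFAM, LRPPRC, HARS2 and WARS2. Of nuclear copies, the 3 with the highest mean were named. MTERF1 after tryptophan depletion and TEFM after histidine depletion were added for both sides of a comparison. The members and lists were chosen with earlier results of these data known.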

Additional observations from a re-analysis of the deposited data

Results flagged for a closer look

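The direct test between the depletions picked out 9 of the 16 tested genes as responding differently to histidine and to tryptophan depletion. Of all genes tested, 39.1% were higher and 37.8% lower in this test, a larger share than among these genes. On the log2 scale, histidine-depleted minus tryptophan-depleted cells, the difference was 0.40 for MT-CYB and 0.34 for MT-RNR1. It was -0.58 for MT-RNR2 and -0.54 for MT-TP, the differences that passed in 13 of 14 alternatives. For MT-ATP8 the difference was -0.31, for MT-ND6 -0.30, for MT-ND5 -0.28, for MT-ATP6 -0.27 and for MT-ND4L -0.24. The base of the medium differed between the depletions as well, and the amino acid and the base cannot be told apart.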

How the results depend on the processing

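MT-TP after either depletion, MT-RNR1 after histidine and MT-RNR2 after tryptophan depletion passed the test under every alternative except the demand for a change of at least 1 on the log2 scale. Counts of called mRNAs depended on the processing. Calls with a library left out rest on the spread of the other libraries alone. After histidine depletion the 7 lower mRNAs became 4 with no filter, 0 with no variance trend, 1 with DESeq2, 0 with the demand for a change of at least 1 on the log2 scale and 2 to 10 when a library was left out, with 0 to 4 higher. The 2 higher rRNAs became 1 with no trend, 1 scaled to nuclear reads, 1 with DESeq2, 0 with that demand and 1 to 2 with a library left out. After tryptophan depletion the 6 lower mRNAs became 2 with no filter, scaled to nuclear reads, with edgeR and in a fit of all 6 libraries, 0 with no trend, with DESeq2 and with that demand, and 0 to 12 with a library left out. The 1 higher mRNA became 0 in each of those settings, and 0 to 9 with a library left out. The 2 higher rRNAs became 1 with no trend, scaled to nuclear reads and with DESeq2, 0 with that demand and 1 to 2 with a library left out. Between the depletions, the 5 lower mRNAs became 0 with no filter, no trend, DESeq2 and with that demand, and 0 to 5 with a library left out. The 1 higher mRNA became 0 with no trend, DESeq2 and with that demand, the higher rRNA 0 in these, with no filter and scaled to nuclear reads, and both were 0 to 1 with a library left out. The lower rRNA became 0 with that demand. Over all genes, that demand left 3002 higher and 2947 lower after histidine depletion, 1801 and 1873 after tryptophan depletion and 2994 and 2857 between the depletions. Scaling to nuclear reads moved the median of all genes to log2 -0.19, -0.06 and -0.09 in the 3 comparisons. It turned MT-ND1 to -0.011, MT-ND2 to -0.17, MT-ND3 to -0.13 and MT-CYB to -0.047 after histidine depletion, MT-ND3 to -0.017 after tryptophan depletion and MT-CO2 to -0.10 between the depletions, where edgeR gave -0.013. With a library left out, log2 fold changes after histidine depletion ran from -0.037 to 0.41 for MT-ND1, -0.19 to 0.25 for MT-ND2, -0.12 to 0.26 for MT-ND3, -0.058 to 0.36 for MT-CYB, -0.37 to 0.089 for MT-CO1 and -0.37 to 0.069 for MT-CO2. After tryptophan depletion they ran from -0.048 to 0.41 for MT-ND1, -0.35 to 0.10 for MT-ND2, -0.14 to 0.32 for MT-CO1, -0.40 to 0.044 for MT-CO2, -0.42 to 0.11 for MT-ATP8, -0.40 to 0.092 for MT-ATP6, -0.14 to 0.25 for MT-ND3, -0.32 to 0.17 for MT-ND4L, -0.29 to 0.15 for MT-ND4, -0.31 to 0.15 for MT-ND5 and -0.39 to 0.039 for MT-ND6. Between the depletions they ran from -0.13 to 0.11 for MT-ND1, -0.11 to 0.14 for MT-CO2 and -0.11 to 0.11 for MT-ND3. The share of reads on mitochondrial genes differed from untreated cells by -1.19 to -0.0811 percentage points after histidine and by -0.653 to 0.457 after tryptophan depletion, and by -0.760 to -0.317 between the depletions. Over all genes tested, samples with the same replicate number did not deviate together (correlations of 0.050, 0.0074 and -0.034), so the numbers were not taken to pair them, although replicate 1 was above replicate 2 for all 13 mRNAs and both rRNAs in untreated and in histidine-depleted cells. A replicate block gave 2 higher and 8 lower mRNAs after histidine, 1 and 7 after tryptophan depletion and 1 and 7 between the depletions. The cause of these differences was not tested. Depth did not limit the mRNAs and rRNAs, each with at least 3236 normalised reads in every library, whereas MT-TF and the tRNA genes at 0 were below what these libraries can compare.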
